A study of Mus musculus with 14 samples.

Results

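Breakdown of the branched-chain amino acids leucine, isoleucine and valine was followed through 10 genes in messenger RNA of the mouse left ventricle. These are the transaminase Bcat2, the dehydrogenase subunits Bckdha, Bckdhb and Dbt with their kinase Bckdk and phosphatase Ppm1k, the valine enzymes Acad8, Hibch and Hibadh, and the leucine enzyme Mccc1. They were chosen by gene symbol, and all 10 were found among the 24054 genes of the count table and passed the filter on low counts, which left 13588 genes to test. The 14 libraries fall into 3 groups of C56Bl6 mice. In 5 libraries, labelled HFpEF-FoxO1-sh, the mice had 6 weeks of a high-fat diet with L-NAME, an inhibitor of nitric oxide synthesis, and 4 weeks of an adeno-associated virus (AAV) with a short hairpin RNA aimed at Foxo1, a transcription factor of insulin signalling. The 4 HFpEF-scr libraries had the same regime and times with a scrambled hairpin, and the 5 control libraries are from 10 weeks of control diet, with no AAV named. The regime is used to model heart failure with preserved ejection fraction (HFpEF). Both HFpEF groups differ from the controls in diet, L-NAME, virus and labelled weeks together, so these cannot be told apart. Age, sex, the cell type that the virus reached and the promoter of the hairpin are not given in the sources used here. The labels do not say that replicates are separate animals, so p-values measure the spread between these libraries.

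Muscle takes branched-chain amino acids into the mitochondrial matrix, where a transaminase removes the amino group and the branched-chain 2-oxoacid dehydrogenase complex then commits the carbon skeleton to oxidation. The complex is held in check by a kinase that phosphorylates its E1 alpha subunit and is released by a phosphatase. Past the complex the routes divide, and carbon from leucine ends in acetyl-CoA and ketone bodies, that from valine in propionyl-CoA and that from isoleucine in both kinds of product. In heart muscle these acids are a minor fuel beside fatty acids and glucose.

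Totals per library ran from 13.64 to 15.38 M counts (M, 1e+06) in HFpEF-FoxO1-sh, from 14.03 to 15.38 M in HFpEF-scr and from 13.17 to 21.25 M in the controls, and every member had between 625 and 6619 counts in each library. Levels are given as CPM, counts per M counts of the library after scaling. Differences are log2 fold changes ± SE, positive where the group named first is higher, and the call of a gene, as risen or fallen, needs an adjusted p below 0.05 across the 13588 genes. Foxo1, the target of the hairpin, ran from 39.3 to 46.0 CPM in HFpEF-FoxO1-sh, from 40.1 to 48.3 CPM in HFpEF-scr and from 42.2 to 47.0 CPM in the controls. Its transcript was not called in HFpEF-FoxO1-sh against HFpEF-scr (-0.04 ± 0.06, edgeR adjusted p = 0.780), so each direction below goes with the group as labelled. All 8 markers of heart muscle were present in every group. Fat tissue also breaks these acids down, and the 8 fat cell markers summed to at most 3.94 CPM in any library, with Retn at 0 in all. HFpEF-scr 1 stood apart, with 5775 CPM of red cell markers against at most 1637 CPM elsewhere and 1541 CPM of endothelial markers against at most 1236 CPM elsewhere. It held the lowest HFpEF-scr level of 8 of the 10 members. The calls of members in the 2 comparisons that use HFpEF-scr are given below with and without it. HFpEF-FoxO1-sh 5 and control 1 each held the lowest level in their group of 5 of the 10.

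**Figure D1:**
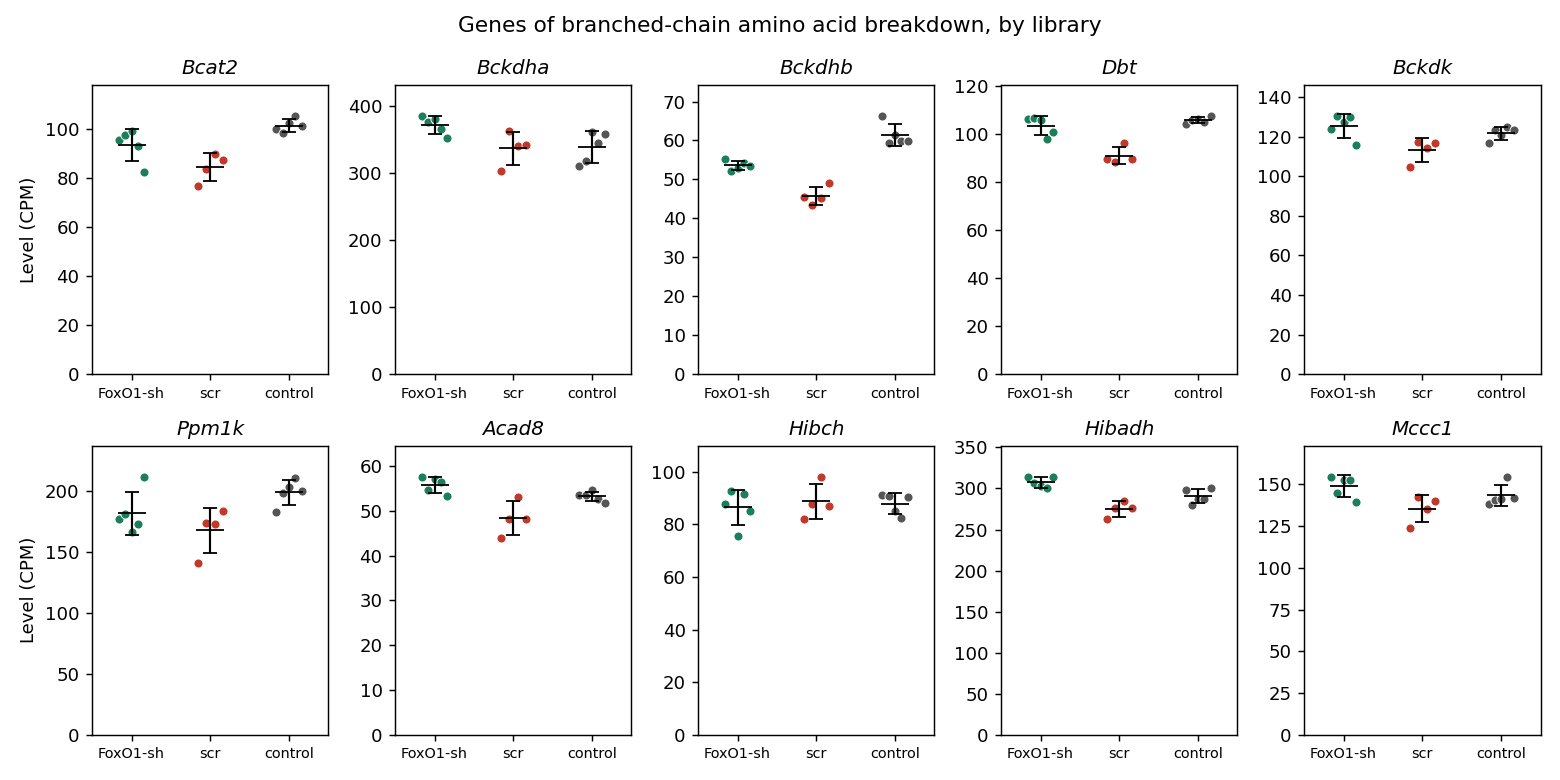
Level of each of the 10 genes in CPM (y axis, from 0) in every library, by group from left to right HFpEF-FoxO1-sh, HFpEF-scr and control; points are libraries, the long dash is the group mean and bars are 1 SD. Bckdhb separates all 3 groups, with 52.3 to 55.3, 43.4 to 49.0 and 59.4 to 66.3 CPM from left to right, while Hibch overlaps throughout.

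In HFpEF-scr against control, 3 of the 10 genes fell and none of the others passed the test. The 3 were Bckdhb, the E1 beta subunit of the dehydrogenase, by 25.5%, Bcat2, the mitochondrial transaminase of the first step, by 16.7%, and Dbt, the E2 subunit, by 14.0%. Of all genes tested 7.37% were called there, 3.66% higher and 3.7% lower. The groups did not overlap for those 3 members and overlapped for the other 7, while 8.93% of all genes had no overlap, 4.29% with HFpEF-scr higher and 4.64% with HFpEF-scr lower. In HFpEF-FoxO1-sh against HFpEF-scr, 4 of the 10 rose, again without overlap, and none fell. They were Bckdhb, Acad8, Dbt and Hibadh, by 17.2%, 15.3%, 13.9% and 11.7%. Of all genes tested 3.58% were called there, 1.32% higher and 2.26% lower, and 8.34% had no overlap, 4.11% with HFpEF-FoxO1-sh higher and 4.23% with it lower. Without HFpEF-scr 1 the first comparison kept 3 calls, the same 3 genes, and the second had 1, Bckdhb (edgeR adjusted p = 0.0401). Against control, HFpEF-FoxO1-sh differed in 1 of the 10, Bckdhb, which fell by 12.7% with no overlap. There 13% of all genes were called, 6.68% higher and 6.28% lower, and 12.1% had no overlap, 6.62% with HFpEF-FoxO1-sh higher and 5.53% with it lower. The first 2 comparisons share the HFpEF-scr libraries, so a low or high library there moves both. The median log2 fold change over the 10 members was -0.12 in HFpEF-scr against control, 0.15 in HFpEF-FoxO1-sh against HFpEF-scr and 0.01 in HFpEF-FoxO1-sh against control, beside 0.00 over all genes tested in each. The 8 heart muscle markers had medians of -0.13, 0.07 and -0.03 in the same 3 comparisons. In the first of them the members' median was no further from 0 than that of these markers. In HFpEF-FoxO1-sh against HFpEF-scr it was further, at 0.15 against 0.07. There 2 lists given below, 20 other genes of the pathway and 14 of related dehydrogenase complexes, each had a median of 0.11. The part of muscle content in these medians was not tested.

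**Figure D2:**
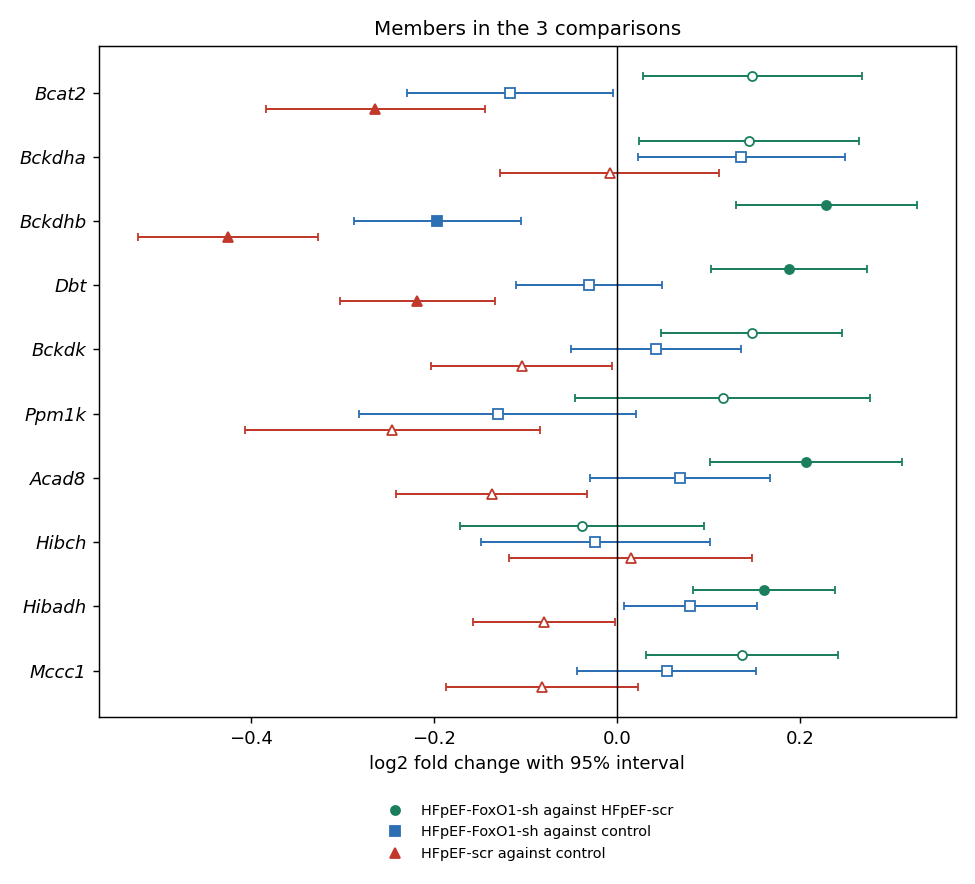
Log2 fold change (x axis) of each gene with its 95% interval in the 3 comparisons; filled symbols passed an adjusted p under 0.05 and open ones did not. Red triangles (HFpEF-scr against control) lie left of 0 for 9 of 10 genes, green circles (HFpEF-FoxO1-sh against HFpEF-scr) right of 0 for 9 of 10, and blue squares (HFpEF-FoxO1-sh against control) on both sides. Of all 13588 genes tested, 6741 lie left of 0 in the first comparison and 6973 right of 0 in the second. Triangles and circles share the HFpEF-scr libraries, so they are not separate patterns.

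Bckdhb encodes the beta subunit of E1, the part of the complex that removes carbon dioxide from the oxoacid. Its GRCm38 position is chromosome 9, 83925145 to 84124240, plus strand, with 11 exons in its principal transcript. The libraries HFpEF-FoxO1-sh 1 to 5 had 55.3, 52.3, 52.9, 54.1 and 53.4 CPM, HFpEF-scr 1 to 4 had 45.4, 43.4, 45.2 and 49.0 CPM, and the controls 1 to 5 had 66.3, 59.4, 61.3, 60.0 and 59.9 CPM. No library of one group reached the range of another, with HFpEF-scr lowest, HFpEF-FoxO1-sh between and the controls highest. Means were 53.6 ± 1.17, 45.8 ± 2.35 and 61.4 ± 2.84 CPM in HFpEF-FoxO1-sh, HFpEF-scr and control (SD, n = 5, 4 and 5). The log2 fold change was -0.43 ± 0.05 in HFpEF-scr against control (edgeR adjusted p = 7.14e-05), which ranked 15 by p among 13588 genes. HFpEF-FoxO1-sh gave 0.23 ± 0.05 against HFpEF-scr (edgeR adjusted p = 0.0163) and -0.20 ± 0.04 against control (edgeR adjusted p = 0.0073). These 3 calls held in every refit without 1 library, with adjusted p up to 0.0491 for the rise, and the rise was not called with the immediate early score as a covariate (adjusted p = 0.0638), a setting added after the data were seen.

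The 300 bases around the start of Bckdhb and of Hibadh are shown because Bckdhb had the largest fold changes of the 10 in both comparisons with HFpEF-scr and because Hibadh alone held a FoxO motif. Both are RefSeq windows of GRCm38.p6, from 250 bases before to 50 bases after the start site, 5′ to 3′ on the gene's strand, at chr9:83924887-83925186 (plus strand) and chr6:52640251-52640550 (minus strand). Capitals mark the FoxO motif.
Bckdhb: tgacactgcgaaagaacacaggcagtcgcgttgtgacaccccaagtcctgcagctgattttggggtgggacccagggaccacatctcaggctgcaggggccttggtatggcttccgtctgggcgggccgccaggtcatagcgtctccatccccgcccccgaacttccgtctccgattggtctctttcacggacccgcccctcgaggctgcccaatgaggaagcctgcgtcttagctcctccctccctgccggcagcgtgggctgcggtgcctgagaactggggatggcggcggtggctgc
Hibadh: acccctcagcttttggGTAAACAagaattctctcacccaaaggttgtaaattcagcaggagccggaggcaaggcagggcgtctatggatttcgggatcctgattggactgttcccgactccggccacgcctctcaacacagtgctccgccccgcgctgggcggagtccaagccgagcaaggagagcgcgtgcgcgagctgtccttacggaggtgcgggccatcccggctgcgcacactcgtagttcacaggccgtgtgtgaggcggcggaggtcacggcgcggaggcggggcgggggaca

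Such windows were at hand for 9 of the 10 genes, 11 windows in all, and not for Dbt. The FoxO motif GTAAACA, read on both strands, was found in 1 of the 11, at position -234 from the start site of Hibadh, and in 3.65% of all 32851 windows. AAGGTCA, a site of nuclear receptors, and CCACACCC, a site of KLF factors, were found in none of the 11, and in 4.72% and 3.56% of all windows. With 1 match in all, no motifs overlapped in the windows of the 10 genes, and a match or its absence in these letters says nothing of binding. The printed window of Bckdhb was 65.0% G and C with 20 CpG pairs, a further Bckdhb window at another start site 37.3% with 2, and that of Hibadh 64.0% with 28, beside medians of 52.7% and 7 pairs over all windows.

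The partners of Bckdhb in the complex moved less. Dbt encodes E2, the lipoyl-bearing core that passes the acyl group to coenzyme A, and lies on chromosome 3 at 116513070 to 116549981, plus strand. HFpEF-FoxO1-sh 1 to 5 had 106, 106, 106, 97.9 and 101 CPM, HFpEF-scr 1 to 4 had 89.3, 88.4, 96.0 and 89.5 CPM, and the controls 1 to 5 had 104, 106, 106, 105 and 107 CPM. All HFpEF-scr libraries lay below both other groups, which overlapped each other. Dbt fell by 0.22 ± 0.04 in HFpEF-scr against control (edgeR adjusted p = 0.00484) and rose by 0.19 ± 0.04 in HFpEF-FoxO1-sh against HFpEF-scr (edgeR adjusted p = 0.0209). The fall held in every refit without 1 library, with adjusted p up to 0.0182. The rise lost its call without HFpEF-FoxO1-sh 1 (adjusted p = 0.0611), HFpEF-FoxO1-sh 3 (0.0508), HFpEF-scr 1 (0.0507) or HFpEF-scr 2 (0.0516), and also with only the 2 groups fitted (0.0573) or with the immediate early covariate (0.0729). HFpEF-FoxO1-sh against control gave -0.03 ± 0.04 (edgeR adjusted p = 0.650).

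Bckdha encodes the E1 alpha subunit, which pairs with Bckdhb and carries the phosphorylation sites, and lies on chromosome 7 at 25629946 to 25658981, minus strand. HFpEF-FoxO1-sh 1 to 5 had 386, 377, 381, 366 and 353 CPM, HFpEF-scr 1 to 4 had 303, 363, 341 and 342 CPM, and the controls 1 to 5 had 310, 319, 362, 346 and 359 CPM. HFpEF-scr and control covered nearly the same range, with a log2 fold change of -0.01 ± 0.06 and a 95% interval from -8.50% to 8.04% (edgeR adjusted p = 0.949). HFpEF-FoxO1-sh gave 0.14 ± 0.06 against HFpEF-scr (edgeR adjusted p = 0.161) and 0.14 ± 0.05 against control (edgeR adjusted p = 0.108), neither called, with most of its libraries above both other groups. In GENCODE 61.7% of the exon bases of Bckdha are shared with B3gnt8 on the other strand, a gene with 30 to 54 counts in any library.

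The pair of E1 subunits was read as a ratio within each library, which no scaling of libraries can change. The CPM of Bckdha was 6.97, 7.21, 7.19, 6.76 and 6.61 times that of Bckdhb in HFpEF-FoxO1-sh 1 to 5, 6.67, 8.35, 7.54 and 6.98 times in HFpEF-scr 1 to 4, and 4.68, 5.36, 5.90, 5.77 and 5.98 times in the controls 1 to 5. Every library of both HFpEF groups lay above every control, and the HFpEF groups overlapped each other. The ratio is given as a description with no test, since it joins members whose values were known. Dbt stood at 1.93 ± 0.09 times Bckdhb in HFpEF-FoxO1-sh, 1.99 ± 0.13 in HFpEF-scr and 1.72 ± 0.09 in control (SD, n = 5, 4 and 5), and here too both HFpEF groups lay above all controls.

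**Figure D3:**
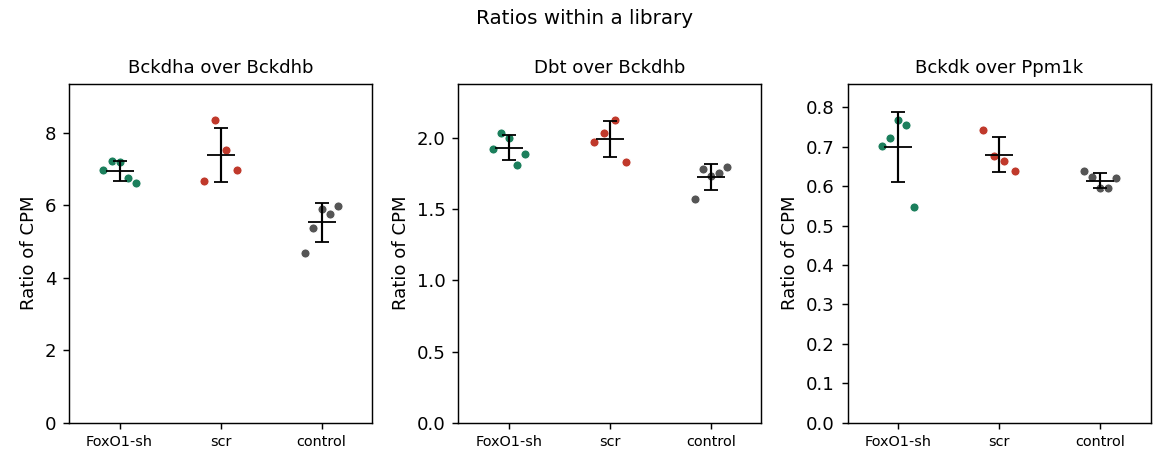
Ratios of CPM within each library (y axis, from 0) for Bckdha over Bckdhb, Dbt over Bckdhb and the kinase Bckdk over the phosphatase Ppm1k, with HFpEF-FoxO1-sh, HFpEF-scr and control from left to right; points are libraries, the long dash is the mean and bars are 1 SD. For Bckdha over Bckdhb the HFpEF libraries start at 6.61 and the controls reach 5.98 at most.

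Neither regulator of the complex was called in any comparison. Bckdk, the inhibiting kinase, lies on chromosome 7 at 127904082 to 127910221, plus strand, and had 124, 131, 127, 130 and 116 CPM in HFpEF-FoxO1-sh 1 to 5, 105, 117, 115 and 117 CPM in HFpEF-scr 1 to 4, and 117, 123, 121, 125 and 124 CPM in the controls 1 to 5. HFpEF-scr 1 was the lowest library and the groups overlapped. The log2 fold change was -0.10 ± 0.05 in HFpEF-scr against control (edgeR adjusted p = 0.187), and 0.15 ± 0.05 against HFpEF-scr (edgeR adjusted p = 0.0858) and 0.04 ± 0.04 against control (edgeR adjusted p = 0.579) in HFpEF-FoxO1-sh. Without HFpEF-FoxO1-sh 5 the difference from HFpEF-scr was called (adjusted p = 0.0448). Over all refits without 1 library that difference ran from 0.11 to 0.17, with edgeR adjusted p up to 0.218.

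Ppm1k, the activating phosphatase, lies on chromosome 6 at 57506502 to 57535468, minus strand. HFpEF-FoxO1-sh 1 to 5 had 177, 181, 166, 173 and 211 CPM, HFpEF-scr 1 to 4 had 141, 173, 173 and 183 CPM, and the controls 1 to 5 had 183, 198, 203, 210 and 199 CPM. The highest HFpEF-scr library and the lowest control met near 183 CPM, and HFpEF-FoxO1-sh 5 stood above the other libraries of its group. HFpEF-scr against control gave -0.25 ± 0.08 (edgeR adjusted p = 0.0595), with an interval from -24.6% to -5.69%, and was called without control 1 (adjusted p = 0.0433) and by DESeq2 (adjusted p = 0.0271). Over all refits without 1 library it ran from -0.29 to -0.17, with edgeR adjusted p up to 0.121. HFpEF-FoxO1-sh gave 0.12 ± 0.08 against HFpEF-scr (edgeR adjusted p = 0.430) and -0.13 ± 0.07 against control (edgeR adjusted p = 0.257). The CPM of Bckdk was 0.698 ± 0.0885 times that of Ppm1k in HFpEF-FoxO1-sh, 0.680 ± 0.0444 times in HFpEF-scr and 0.614 ± 0.0194 times in control (SD, n = 5, 4 and 5). The HFpEF-scr ratios began at 0.638 and the control ratios ended at 0.639, so these groups touched, and HFpEF-FoxO1-sh spanned 0.547 to 0.767.

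Bcat2, which moves the amino group to 2-oxoglutarate in mitochondria outside the liver, lies on chromosome 7 at 45570153 to 45589711, plus strand. HFpEF-FoxO1-sh 1 to 5 had 95.5, 97.7, 99.4, 93.1 and 82.7 CPM, HFpEF-scr 1 to 4 had 76.9, 83.9, 90.0 and 87.6 CPM, and the controls 1 to 5 had 100.2, 98.4, 103, 106 and 101 CPM. All HFpEF-scr libraries lay below all controls, and HFpEF-FoxO1-sh overlapped both. Bcat2 fell by 0.26 ± 0.06 in HFpEF-scr against control (edgeR adjusted p = 0.0116), a call that held in every refit without 1 library, with adjusted p up to 0.0319, and not with the immediate early score as a covariate (adjusted p = 0.0551). HFpEF-FoxO1-sh gave 0.15 ± 0.06 against HFpEF-scr (edgeR adjusted p = 0.150), which was called without HFpEF-FoxO1-sh 5 (adjusted p = 0.0493), and -0.12 ± 0.05 against control (edgeR adjusted p = 0.165). Against HFpEF-scr, refits without 1 library ran from 0.11 to 0.19, with edgeR adjusted p up to 0.351.

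Of the 3 valine enzymes, 2 were called, both in HFpEF-FoxO1-sh against HFpEF-scr. Acad8, the isobutyryl-CoA dehydrogenase on chromosome 9 at 26974135 to 26999566, minus strand, had 57.6, 54.7, 57.1, 56.5 and 53.3 CPM in HFpEF-FoxO1-sh 1 to 5, 44.0, 48.2, 53.1 and 48.3 CPM in HFpEF-scr 1 to 4, and 53.6, 53.6, 54.6, 52.6 and 51.7 CPM in the controls 1 to 5. The 2 HFpEF groups were parted only by the gap between 53.3 CPM in HFpEF-FoxO1-sh 5 and 53.1 CPM in HFpEF-scr 3. Acad8 rose by 0.21 ± 0.05 in HFpEF-FoxO1-sh against HFpEF-scr (edgeR adjusted p = 0.0336). That call was lost in 6 of 9 refits, without HFpEF-FoxO1-sh 1, 2, 3 or 4 (adjusted p = 0.0801, 0.0545, 0.0666 and 0.0731) and without HFpEF-scr 1 or 2 (0.0913 and 0.0667). It was also lost with no filter on low counts (adjusted p = 0.0540), with only the 2 groups fitted (0.0796) and with the immediate early covariate (0.134). HFpEF-scr against control gave -0.14 ± 0.05 (edgeR adjusted p = 0.103), called without HFpEF-scr 3 (adjusted p = 0.0311), and HFpEF-FoxO1-sh against control gave 0.07 ± 0.05 (edgeR adjusted p = 0.372). For HFpEF-scr against control, refits without 1 library ran from -0.19 to -0.097, with edgeR adjusted p up to 0.230.

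Hibadh, which oxidises free 3-hydroxyisobutyrate, lies on chromosome 6 at 52546228 to 52640389, minus strand. HFpEF-FoxO1-sh 1 to 5 had 314, 306, 303, 300.0 and 314 CPM, HFpEF-scr 1 to 4 had 263, 276, 285 and 277 CPM, and the controls 1 to 5 had 299, 280, 288, 287 and 301 CPM. The lowest HFpEF-FoxO1-sh library lay just under the highest control, and HFpEF-scr overlapped the controls from below. It rose by 0.16 ± 0.04 in HFpEF-FoxO1-sh against HFpEF-scr (edgeR adjusted p = 0.0284), a call lost without HFpEF-FoxO1-sh 1 (adjusted p = 0.0716), HFpEF-FoxO1-sh 2 (0.0515), HFpEF-scr 1 (0.0644) or HFpEF-scr 2 (0.0505), and also with no filter (0.05002), with only the 2 groups fitted (0.0578) or with the immediate early covariate (0.0733). HFpEF-scr against control gave -0.08 ± 0.04 (edgeR adjusted p = 0.194) and HFpEF-FoxO1-sh against control 0.08 ± 0.03 (edgeR adjusted p = 0.144).

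Hibch, the hydrolase that frees 3-hydroxyisobutyrate from coenzyme A between those steps, did not follow its neighbours. It lies on chromosome 1 at 52844929 to 52920986, plus strand, and ran from 75.5 to 92.5 CPM in HFpEF-FoxO1-sh, from 82.1 to 98.1 CPM in HFpEF-scr and from 82.3 to 91.0 CPM in the controls. Its log2 fold change was 0.01 ± 0.06 in HFpEF-scr against control, with an interval from -7.87% to 10.8%, and -0.04 ± 0.06 in HFpEF-FoxO1-sh against HFpEF-scr, with an interval from -11.2% to 6.78% (edgeR adjusted p = 0.918 and 0.791). HFpEF-FoxO1-sh against control gave -0.02 ± 0.06 (edgeR adjusted p = 0.840). It was the only member above 0 in the first of these comparisons and the only one below 0 in the second, and both signs turned in some refits without 1 library.

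On the leucine branch, Mccc1, the biotin-bearing subunit of methylcrotonyl-CoA carboxylase on chromosome 3 at 35959312 to 36000678, minus strand, was called nowhere. It ran from 139 to 155 CPM in HFpEF-FoxO1-sh, from 124 to 142 CPM in HFpEF-scr and from 138 to 154 CPM in the controls. It gave 0.14 ± 0.05 in HFpEF-FoxO1-sh against HFpEF-scr (edgeR adjusted p = 0.128), with an interval from 2.21% to 18.2%, -0.08 ± 0.05 in HFpEF-scr against control (edgeR adjusted p = 0.335) and 0.05 ± 0.05 in HFpEF-FoxO1-sh against control (edgeR adjusted p = 0.501). In GENCODE 5.6% of its exon bases overlap antisense genes, of which Mccc1os had at most 67.2 counts.

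Levels were compared between genes as CPM per kilobase of the principal transcript. In HFpEF-FoxO1-sh the order ran from Bckdha with 196 ± 6.94, Hibadh with 168 ± 3.53, Mccc1 with 60.6 ± 2.65 and Bcat2 with 52.9 ± 3.73 down to Dbt with 31.3 ± 1.18 and Acad8 with 19.5 ± 0.632 CPM per kilobase (SD, n = 5). In the controls the same genes had 179 ± 12.3, 159 ± 4.72, 58.4 ± 2.52, 57.3 ± 1.51, 32.0 ± 0.387 and 18.6 ± 0.381 CPM per kilobase (SD, n = 5). Bckdhb had 36.4 ± 0.793 in HFpEF-FoxO1-sh, 31.1 ± 1.60 in HFpEF-scr and 41.7 ± 1.93 CPM per kilobase in the controls (SD, n = 5, 4 and 5), so Bckdha stood above its E1 partner in every group. Mccc1 and Bcat2 in the controls, and Bckdk and Ppm1k there with 35.8 ± 0.959 and 35.7 ± 1.82, did not differ beyond their spread on this length. With all annotated exons merged as the length, Bckdha stayed first and Acad8 last, Mccc1 had 13.1 ± 0.565 against 26.1 ± 0.687 CPM per kilobase of Bcat2 in the controls, a gap beyond their spread, and Bckdk and Ppm1k had 33.0 ± 0.884 and 33.0 ± 1.68. On that length Hibadh came sixth in the controls, with 28.6 ± 0.846 CPM per kilobase, since its merged exons span 10179 bases against 1825 in the principal transcript.

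Over the 14 libraries, each gene's profile of log2 CPM, set to mean 0 and SD 1, was compared with those of 11392 other genes by the mean absolute difference. Nearest to Bckdhb were Ccbl2 and Gcat, at 0.242 and 0.257 SD, to Dbt Mpc1 and Slc25a11, at 0.273 and 0.294 SD, and to Bcat2 Glud1 and Mthfsd, at 0.329 and 0.334 SD. The profiles nearest to Bckdha were those of Tcea3 and Tmbim6, at 0.276 and 0.291 SD, to Hibadh those of Ndufb2 and Uqcrc2, at 0.329 and 0.354 SD, and to Acad8 those of Vars2 and Uqcrc1, at 0.346 and 0.354 SD. Nearest to Bckdk were R3hdm4 and Pmpca, at 0.360 and 0.364 SD, to Ppm1k Abcf1 and Sap30bp, at 0.378 and 0.379 SD, and to Mccc1 Cmbl and Gstt1, at 0.343 and 0.360 SD. The profile of Hibch had the most distant nearest neighbours of the 10, Hrasls and AU019823, at 0.413 and 0.414 SD. These libraries share groups and scaling, so likeness of profile is a description only.

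Markers of other cells moved with the comparisons. The summed level of the 8 heart muscle markers ran from 101600 to 112800 CPM in HFpEF-FoxO1-sh, from 98040 to 107300 CPM in HFpEF-scr and from 107800 to 116100 CPM in the controls, and 2 of the 8, Myl2 and Myh6, fell in HFpEF-scr against control. In whole tissue, fewer muscle cells and less RNA per muscle cell cannot be told apart. Most of the summed heart muscle level was Myh6, with means of 58620, 53630 and 60540 CPM in HFpEF-FoxO1-sh, HFpEF-scr and control. A level set against the sum thus largely follows Myh6, which itself fell in HFpEF-scr, and is no measure of muscle content. Per 10000 CPM of the 8 heart muscle markers, Bckdhb stood at 4.64 to 5.33 CPM in HFpEF-FoxO1-sh, 4.40 to 4.63 CPM in HFpEF-scr and 5.16 to 6.00 CPM in the controls, so HFpEF-scr and control did not overlap on that scale either. HFpEF-FoxO1-sh overlapped the controls there, from 5.16 to 5.33 CPM, and was parted from HFpEF-scr only by 4.636 against 4.63 CPM. On the same scale Dbt had 8.34 to 9.56 CPM in HFpEF-scr and 9.24 to 9.82 CPM in the controls, and Bcat2 7.85 to 8.96 CPM in HFpEF-scr and 8.72 to 9.43 CPM in the controls, with overlap for both. Acad8, with 4.85 to 5.56 CPM in HFpEF-FoxO1-sh and 4.49 to 5.29 CPM in HFpEF-scr, Hibadh, with 27.1 to 29.9 CPM in HFpEF-FoxO1-sh and 25.8 to 28.4 CPM in HFpEF-scr, and Dbt, with 9.42 to 9.69 CPM in HFpEF-FoxO1-sh, overlapped as well. Fibroblast markers summed to 725 to 917 CPM in HFpEF-FoxO1-sh, 984 to 1134 CPM in HFpEF-scr and 935 to 1086 CPM in the controls. In HFpEF-FoxO1-sh against control 3 of these 8, the collagens Col3a1, Col1a1 and Col1a2, fell, with means of 121, 59.2 and 113 CPM in HFpEF-FoxO1-sh and 254, 98.7 and 138 CPM in the controls, while 4 of the 8 lay above 0, uncalled, and the list median was -0.03. In HFpEF-scr against control all 8 lay above 0 and 2, Lum and Pdgfra, rose. In HFpEF-FoxO1-sh against HFpEF-scr all 8 lay below 0, the same 3 collagens fell and the median was -0.30. Of the heart muscle markers 7 of 8 lay above 0 there, uncalled. The 8 pericyte and smooth muscle markers summed to 1094 to 1232 CPM in HFpEF-FoxO1-sh, 1182 to 1268 CPM in HFpEF-scr and 1095 to 1251 CPM in the controls, and 3 of them, Rgs5, Acta2 and Tagln, rose in HFpEF-scr against control, with 7 of 8 above 0 and a median of 0.32. Against HFpEF-scr, 7 of 8 lay below 0 in HFpEF-FoxO1-sh, uncalled. Endothelial markers summed to 1038 to 1100 CPM in HFpEF-FoxO1-sh, 1063 to 1541 CPM in HFpEF-scr and 1148 to 1236 CPM in the controls. Among them Pecam1 alone rose in HFpEF-scr against control, where 5 of 8 lay below 0. Pecam1 alone fell in HFpEF-FoxO1-sh against HFpEF-scr, and Cdh5 alone against control, with 6 of 8 below 0 in each. The 7 macrophage markers in the table summed to 122 to 155 CPM in HFpEF-FoxO1-sh, 162 to 212 CPM in HFpEF-scr and 181 to 244 CPM in the controls, and edgeR called 6 of them lower in HFpEF-FoxO1-sh against control and 2 lower against HFpEF-scr. The 9 immediate early genes, which answer stimuli within minutes, summed to 186 to 1230 CPM in HFpEF-FoxO1-sh, 483 to 3199 CPM in HFpEF-scr and 162 to 1888 CPM in the controls. All 9 lay above 0 in HFpEF-scr against control, with a median of 0.98, and Fosb rose. In HFpEF-FoxO1-sh against HFpEF-scr all 9 lay below 0, with a median of -1.16, and Fosb and Fos fell. None was called in HFpEF-FoxO1-sh against control. A score of these genes thus partly follows the groups, so a fit with it cannot part the 2. With the mean log2 CPM of the 9 as a covariate, edgeR called 2 members, Bckdhb and Dbt, in HFpEF-scr against control and 0 in HFpEF-FoxO1-sh against HFpEF-scr, where 7 had an unadjusted p under 0.05. Without the covariate 8 members and 2676 of the 13588 genes had such a p there. Calls of markers stand beside 7.37% of all genes called in HFpEF-scr against control. The shares were 3.58% in HFpEF-FoxO1-sh against HFpEF-scr and 13% in HFpEF-FoxO1-sh against control. The part of each marker list in the results was otherwise not tested.

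Another 20 genes of the pathway were taken from a list of its transport, shared subunits and later steps, and all were tested. In HFpEF-scr against control, 1 rose and 1 fell, with a list median of -0.03. The riser was Acat1, the mitochondrial thiolase that ends isoleucine breakdown and also acts on ketone bodies, with 886 to 1016 CPM in HFpEF-scr and 725 to 814 CPM in the controls, a log2 fold change of 0.32 ± 0.05 (edgeR adjusted p = 6.24e-04). The gene that fell was Hsd17b10, the dehydrogenase before that step, with 88.6 to 94.0 CPM in HFpEF-scr and 106 to 113 CPM in the controls (-0.26 ± 0.04, edgeR adjusted p = 0.00152). The groups did not overlap at either gene, and at 4 of the 20 in all, beside 8.93% of all genes tested. These 2 calls of 20 stand beside the 7.37% of all genes called in that comparison, 3.66% higher and 3.7% lower.

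In HFpEF-FoxO1-sh against HFpEF-scr, 3 of the 20 rose and none fell, with a median of 0.11. The groups had no overlap at 7 of the 20, beside 8.34% of all genes tested. Of all genes tested 3.58% were called there, 1.32% higher and 2.26% lower. Echs1, the enoyl-CoA hydratase shared with fatty acid oxidation, had 295 to 321 CPM in HFpEF-FoxO1-sh and 267 to 281 CPM in HFpEF-scr (0.18 ± 0.03, edgeR adjusted p = 0.0110), and its call held in every refit without 1 library. Hsd17b10 had 95.4 to 105 CPM in HFpEF-FoxO1-sh and 88.6 to 94.0 CPM in HFpEF-scr (0.17 ± 0.04, edgeR adjusted p = 0.0299). Mccc2, the partner subunit of Mccc1, had 99.8 to 114 CPM in HFpEF-FoxO1-sh and 91.1 to 100.4 CPM in HFpEF-scr (0.18 ± 0.05, edgeR adjusted p = 0.0499). The calls were less firm for these last genes. That of Hsd17b10 was lost without HFpEF-FoxO1-sh 1, 2, 3 or 4 (adjusted p = 0.0716, 0.0653, 0.0633 and 0.0725) or HFpEF-scr 2, 3 or 4 (0.0654, 0.0619 and 0.0537), and that of Mccc2 without HFpEF-FoxO1-sh 1, 2, 3 or 4 (0.114, 0.0835, 0.0891 and 0.109) or any HFpEF-scr library (0.129, 0.0562, 0.0932 and 0.0608 for 1 to 4).

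In HFpEF-FoxO1-sh against control Acat1 was the sole call of the 20, with 998 to 1061 CPM in HFpEF-FoxO1-sh and 725 to 814 CPM in the controls (0.44 ± 0.04, edgeR adjusted p = 1.43e-05), and the list median was 0.05. Of all genes tested 13% were called in that comparison. There 8 of the 20 had no overlap, beside 12.1% of all genes tested. Klf15, a transcription factor known to drive this pathway in muscle, gave 0.10 ± 0.15 in HFpEF-scr against control and 0.01 ± 0.15 in HFpEF-FoxO1-sh against HFpEF-scr (edgeR adjusted p = 0.744 and 0.978). HFpEF-scr 4 had 107 CPM of Klf15, with the rest of its group at 61.3 to 63.9 CPM and the controls at 60.5 to 83.4 CPM. Bcat1, the cytosolic transaminase, was at 2.22 CPM or less in every library. Dld, the E3 subunit that the complex shares with pyruvate dehydrogenase, gave 0.15 ± 0.04 in HFpEF-FoxO1-sh against HFpEF-scr (edgeR adjusted p = 0.0662).

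**Figure D4:**
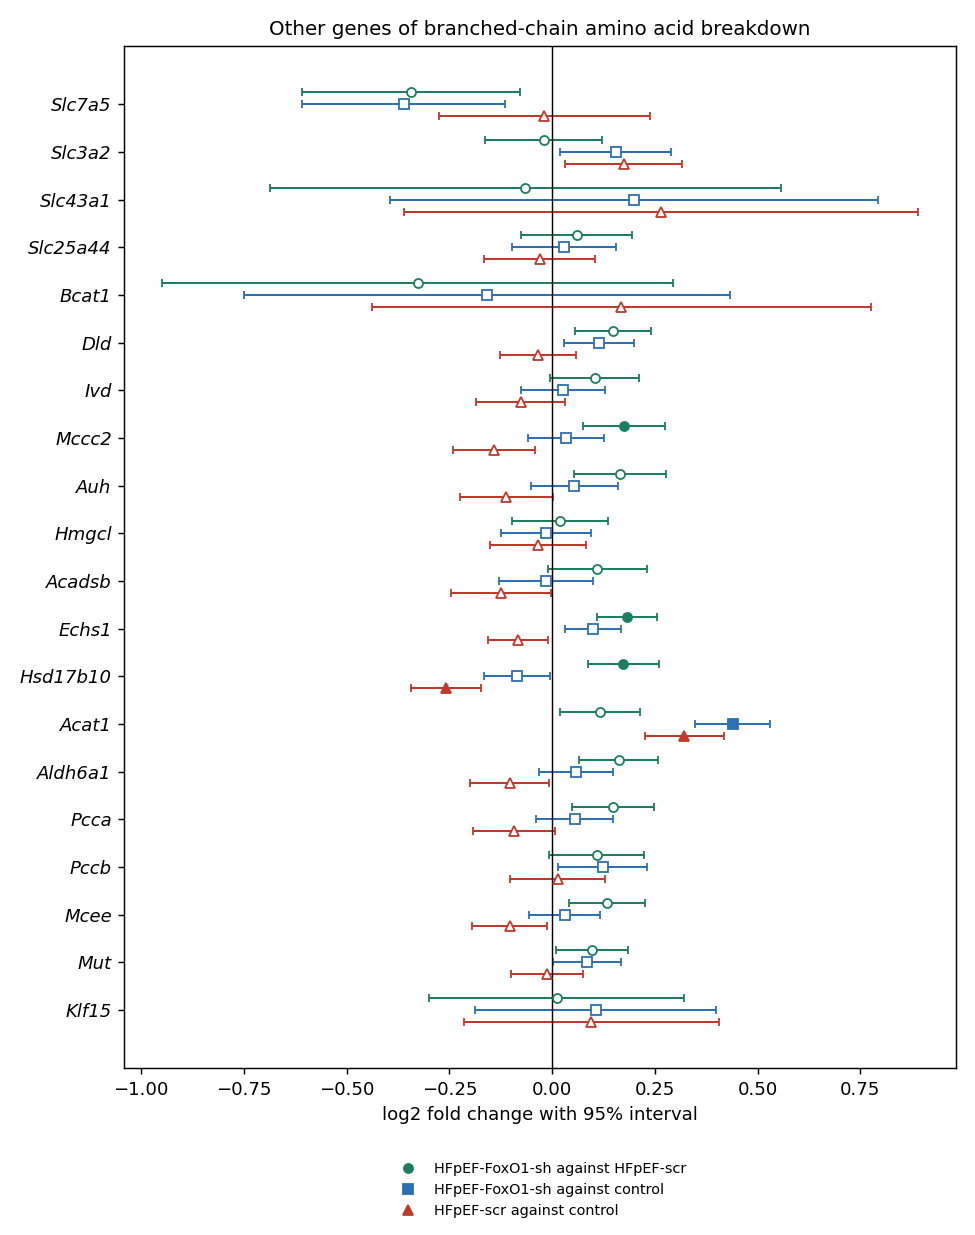
Log2 fold change (x axis) with 95% intervals of 20 other genes of the pathway, from carriers at the top to the regulator Klf15 at the bottom, in the 3 comparisons; filled symbols passed an adjusted p under 0.05. Acat1 lies right of 0 in all 3 comparisons, and the carrier Slc43a1 and Bcat1 have the widest intervals.

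The pyruvate and 2-oxoglutarate dehydrogenase complexes are built like the branched-chain one, and 14 genes of theirs were set beside it. In HFpEF-scr against control 2 rose and 3 fell, with a median of -0.07. Of all genes tested 7.37% were called there, 3.66% higher and 3.7% lower. The kinase Pdk4 rose 2.83-fold and the kinase Pdk1 by 0.30 ± 0.04, and the kinase Pdk2, the binding protein Pdhx and the phosphatase Pdp2 fell by 0.23 ± 0.04, 0.23 ± 0.05 and 0.41 ± 0.11 (edgeR adjusted p = 0.00192, 9.46e-04, 0.00182, 0.00871 and 0.0314). The call of Pdp2 was lost without control 3 or 5 (adjusted p = 0.0687 and 0.0721) or HFpEF-scr 2, 3 or 4 (0.0857, 0.0771 and 0.0816). Bckdk, related to these kinases in sequence, had a log2 fold change of -0.10 there, as given above. In HFpEF-FoxO1-sh against HFpEF-scr edgeR called 0 of the 14, limma voom 0 and DESeq2 2, while 10 had an unadjusted p under 0.05 and the median was 0.11. There edgeR called 3.58% of all genes tested, and 2676 of the 13588 had an unadjusted p under 0.05. In HFpEF-FoxO1-sh against control Pdk1, Pdk4 and the E1 alpha subunit Pdha1 rose by 0.35 ± 0.04, 1.16 ± 0.23 and 0.16 ± 0.03 and Pdk2 fell by 0.13 ± 0.04 (edgeR adjusted p = 5.92e-05, 0.00412, 0.00667 and 0.0273). Of all genes tested 13% were called there, 6.68% higher and 6.28% lower. The call of Pdk2 was lost in 6 of 10 refits, without HFpEF-FoxO1-sh 1, 2, 3 or 5 (adjusted p = 0.0528, 0.0524, 0.0599 and 0.0655) or control 3 or 5 (0.0612 and 0.0732).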

How the data were processed

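The authors deposited 1 table of expected counts per gene, and the submitters' processing notes name Bowtie2 2.1.0, RSEM 1.2.15 and mm10 (GRCm38), without the order of the steps. RSEM shares ambiguous reads between genes, and annotation, filters and use of strand are not given in the sources used here, so reads of antisense neighbours may be mixed. Columns were matched to samples by library number. These numbers run in blocks by group, and 1 number is absent within the HFpEF-scr block.

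Expected counts were rounded, filtered with filterByExpr and scaled by TMM in edgeR 4.0.16 (R 4.3.3). The quasi-likelihood model had a mean for each of the 3 groups over all 14 libraries, with two-sided F-tests and Benjamini-Hochberg adjustment over 13588 genes; SE and 95% intervals come from the F statistic. The scripts were tested on simulated data with planted 1.5-fold and 2-fold changes, of which 63% to 75% and 81% to 84% were called. Members differed by at most 1.34-fold, so that test does not cover changes of their size. Members, lists and motifs were chosen with earlier results of these data known. Named genes were all 10 members, called genes of the 2 other lists, up to 8 per comparison by p, and the 2 nearest profiles of a member among genes with at least 2 CPM and no model name (Gm or Rik). Log2 CPM used a prior count of 2. Alternatives were DESeq2 size factors, no filter, DESeq2 1.42.0, limma voom (3.58.1), a replicate block, fits of 2 groups, and leaving out each library. Gene positions and lengths are those of GENCODE vM21. No pair of replicates was a duplicate. Figures used matplotlib 3.10.9.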

Additional observations from a re-analysis of the deposited data

Results flagged for a closer look

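Dixon's test of the outermost library was applied to 30 sets, each gene in each group, and 3 sets passed its 95% value, where chance flags about 1 in 20. Control 1 was high for Bckdhb, at 66.3 CPM, with the other controls at 59.4 to 61.3 CPM. HFpEF-scr 3 was high for Dbt, at 96.0 CPM, with the others of its group at 88.4 to 89.5 CPM, and control 4 was high for Mccc1, at 154 CPM, with the other controls at 138 to 142 CPM. Without control 1, the log2 fold change of Bckdhb in HFpEF-scr against control stayed called.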

How the results depend on the processing

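Of 490 refits of a member's log2 fold change, 452 kept direction and side of the threshold, 25 lost a call, 5 gained one and 8 turned sign. In HFpEF-scr against control, the falls of Bckdhb and Dbt held under every alternative and library left out, and that of Bcat2 under all but the immediate early covariate. In HFpEF-FoxO1-sh against HFpEF-scr, the 4 member calls became 2 with no filter on low counts and 1 with only the 2 groups fitted. Leaving out 1 library gave 1 to 6. With the immediate early score as a covariate, added after the data were seen, the member calls became 0. There 7 members had an unadjusted p under 0.05, against 8 members and 2676 of the 13588 genes in the main fit. The 3 other pathway genes became 5 with DESeq2 and 1 with no filter, with only the 2 groups, with the block or with the covariate, and 1 to 3 without 1 library; the 486 genes called became 876 with DESeq2, 291 with the block, 226 with the covariate and 162 to 668 without 1 library. In HFpEF-scr against control, the 1001 genes called became 504 with only the 2 groups, 426 with the covariate and 537 to 1106 without 1 library. In HFpEF-FoxO1-sh against control, the 1 other pathway gene became 2 with DESeq2, limma voom or the block, 4 with only the 2 groups and 1 to 2 without 1 library. The cause of these moves was not tested.

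Signs turned only without 1 library, and none of these values was called. Bckdha in HFpEF-scr against control ran from -0.0470 to 0.0372, the last without HFpEF-scr 1, with 0.0175 without control 3 and 0.0130 without control 5. Hibch ran from -0.0402 without HFpEF-scr 3 to 0.0472 there (-0.00776 without control 4), from -0.0718 to 0.0155 without HFpEF-scr 3 in HFpEF-FoxO1-sh against HFpEF-scr (0.00659 without HFpEF-FoxO1-sh 3), and from -0.0490 to 0.0212 without HFpEF-FoxO1-sh 3 in HFpEF-FoxO1-sh against control.

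The groups share only replicate numbers. Over 13 pairs with the same number, deviations from the group means correlated at -0.19 to 0.11, and over 52 other pairs at -0.13 to 0.22. With the replicate block, members called numbered 3, 3 and 1 in HFpEF-scr against control, HFpEF-FoxO1-sh against HFpEF-scr and HFpEF-FoxO1-sh against control, and Hibadh lost its call (adjusted p = 0.0906).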
